A study of Homo sapiens with 4 samples.

Results

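The interferon-stimulated genes described here are a named set of 42 genes that type I interferon is known to induce. Members were found by gene symbol in the expression tables of Huh1 and Huh7 cells, and all 42 were among the 18398 RefSeq transcripts listed. The rule itself used only gene symbols. Huh1 and Huh7 are established human hepatocellular carcinoma (HCC) cell lines. Each line was transfected with either a negative control siRNA (NCsiRNA) or an siRNA against CDCA8, a subunit of the chromosomal passenger complex that steers chromosome segregation in mitosis. RNA was sequenced from 4 libraries, 1 for each line and siRNA. There was thus no replicate of any condition, and no untransfected library, so a response shared by both siRNAs could not be seen. Interferon was not part of any treatment named in the labels.

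Interferons are secreted proteins by which a cell warns its neighbours of viral nucleic acid. Sensors such as RIG-I (the DDX58 product), MDA5 (IFIH1) and TLR3 detect foreign RNA, and factors of the IRF family then switch on interferon genes. Secreted type I interferon binds IFNAR1 and IFNAR2, the kinases JAK1 and TYK2 phosphorylate STAT proteins such as STAT2, which join IRF9 in the complex ISGF3. ISGF3 binds a short element in the promoters of interferon-stimulated genes, whose products bind, cut or trap viral components. Short double-stranded RNAs can themselves engage some of these sensors, and hepatocyte-derived lines are known to differ in this pathway. The set was therefore compared between the lines and between the siRNAs.

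The element that ISGF3 recognizes holds the letters GAAA, any 2 bases, then GAAA, and it was searched for on either strand of the RefSeq promoter windows (GRCh38.p14, from 250 bases before to 50 bases after each transcript start). Of the 42 members, 34 had an entry in the promoter table, and 24 of these (70.6%) held at least 1 match. Over all genes of the table, 1195 of 27305 (4.38%) did. Counted by window, 28 of 44 (63.6%) held a match against 3.57% of all 35116 windows. A match is a run of letters and not a measured binding site, and matches that overlapped each other were counted separately. For 9 members whose levels are described in full, and for IFIT1 and IFIT3 of the same cluster as IFIT5, the match nearest to the transcript start is shown with 10 bases on each side, written 5′ to 3′ on the strand of the gene, with the matched letters in capitals.
IFIH1 (chr2:162318686-162318715, minus strand): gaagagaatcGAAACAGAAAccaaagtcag
TLR3 (chr4:186069142-186069171, plus strand): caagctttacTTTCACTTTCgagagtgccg
IFIT1 (chr10:89392510-89392539, plus strand): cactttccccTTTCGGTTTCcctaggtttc
IFIT3 (chr10:89332468-89332497, plus strand): gttccatcagTTTCACTTTCctttcccctt
IFIT5 (chr10:89414554-89414583, plus strand): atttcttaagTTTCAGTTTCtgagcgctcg
IFITM3 (chr11:320876-320905, minus strand): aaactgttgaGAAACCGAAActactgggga
OAS3 (chr12:112938452-112938481, plus strand): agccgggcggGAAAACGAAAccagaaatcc
MX1 (chr21:41420559-41420588, plus strand): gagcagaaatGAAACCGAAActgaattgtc
ISG15 (chr1:1013380-1013409, plus strand): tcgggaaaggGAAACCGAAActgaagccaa
SAMD9 (chr7:93118096-93118125, minus strand): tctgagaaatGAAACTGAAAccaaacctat
DTX3L (chr3:122564322-122564351, plus strand): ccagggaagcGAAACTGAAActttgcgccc

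In TLR3 and the 3 IFIT genes the match lay on the opposite strand and reads as TTTC, 2 bases, TTTC. The match of DTX3L was also the match of PARP9, since these genes are read in opposite directions from the same stretch of chromosome 3. No match was found in the windows of DDX58, IRF1, IRF9, STAT2, OAS1, HERC6, CMPK2, SAMD9L, IFI35 and XAF1, which says only that these letters are not in those windows. IRF7, IFIT2, IFITM2, OAS2, OASL, MX2, USP18 and TRIM22 had no entry in the table.

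**Figure D1:**
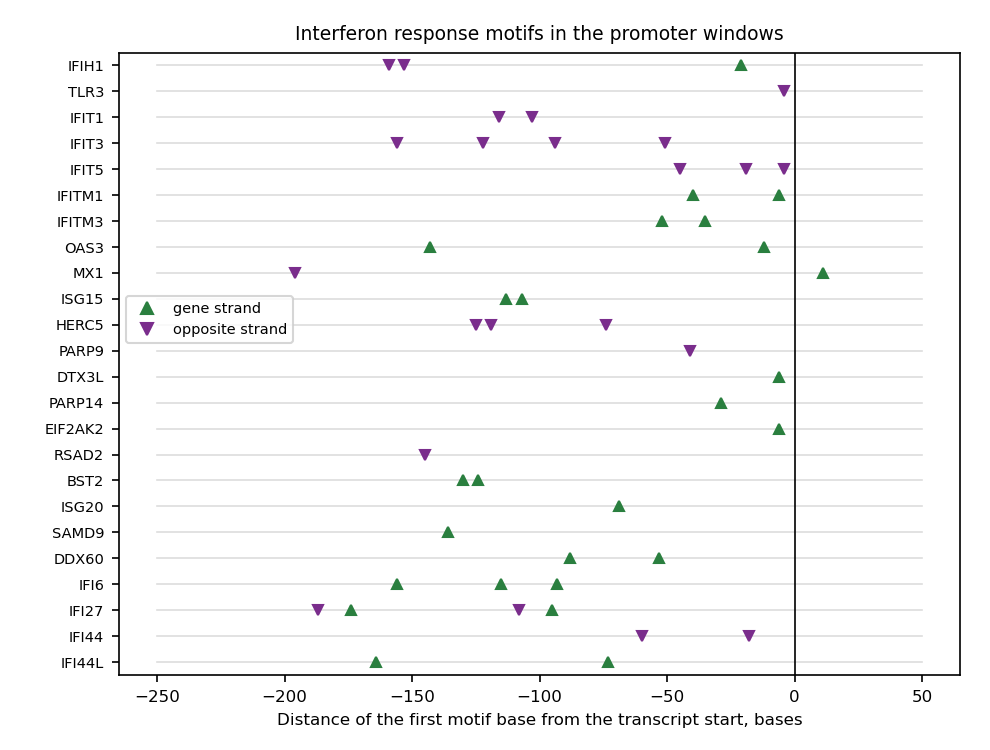
Position of each match in the promoter windows of the 24 members that held 1 or more; the x axis gives the distance in bases from the transcript start to the first base of the match, negative before the start, and triangles give the strand. A gene with several annotated starts has its matches drawn against each. All matches but 1, in MX1 at 11, began before the start, the farthest at -196, and the matches of TLR3, IFITM1, DTX3L, EIF2AK2 and IFIT5 came within 10 bases of it.

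The deposited value of each transcript behaves as RPKM, read number scaled to transcript length and library depth, so levels can be compared between genes. The libraries held between 12197606 and 13384836 reads, as estimated from the value of 1 read. These estimates and the read numbers given below are approximate, because transcript lengths were taken from another annotation. CDCA8, the targeted gene, was at 24.1 RPKM with NCsiRNA and 5.86 RPKM with CDCA8siRNA in Huh1, and at 51.5 and 7.36 RPKM in Huh7, so the silenced libraries were those labelled so. All 10 hepatocyte and liver tumour markers examined, such as ALB and HNF4A, had at least 1 RPKM in every library. The 3 endothelial markers listed summed to at most 0.0247 RPKM, with CDH5 at 0 throughout.

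Most of the set was readable in these cells, but at low levels. At least 1 RPKM was reached in 1 library or more by 30 of the 42 members, and by 12148 of all 18398 transcripts. In all 4 libraries 17 members reached it, a count not made for all transcripts. In the separate libraries 22 to 26 members did so, or 52.4% to 61.9%, against 58.4% to 62.0% of all transcripts. At 10 RPKM the set held 11.9% to 19.0% of its members and all transcripts 33.1% to 35.3%. IFITM3 alone made up 49.7% and 42.7% of the summed RPKM of the members in Huh1 and 66.1% and 56.7% in Huh7, with NCsiRNA and CDCA8siRNA respectively. As these are bulk libraries, fewer cells expressing a gene and less RNA per cell cannot be told apart.

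A further 12 members stayed under 1 RPKM in every library. They were OAS2, HERC5, HERC6, RSAD2, CMPK2, BST2, TRIM22, DDX60, IFI27, IFI44, IFI44L and XAF1. OAS2, BST2, TRIM22, IFI44 and IFI44L were under 0.1 RPKM throughout. Among these 5 genes are a 2′-5′ oligoadenylate synthetase (OAS2) and the membrane protein tetherin (BST2), which holds budding virions at the cell surface. BST2 was listed at 0 in 3 libraries and at 0.0807 RPKM in Huh1 with CDCA8siRNA, about 1 read. RSAD2, which encodes the antiviral enzyme viperin, ranged from 0.125 to 0.254 RPKM. The promoter windows of BST2, IFI44, IFI44L and RSAD2 held the interferon motif.

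**Figure D2:**
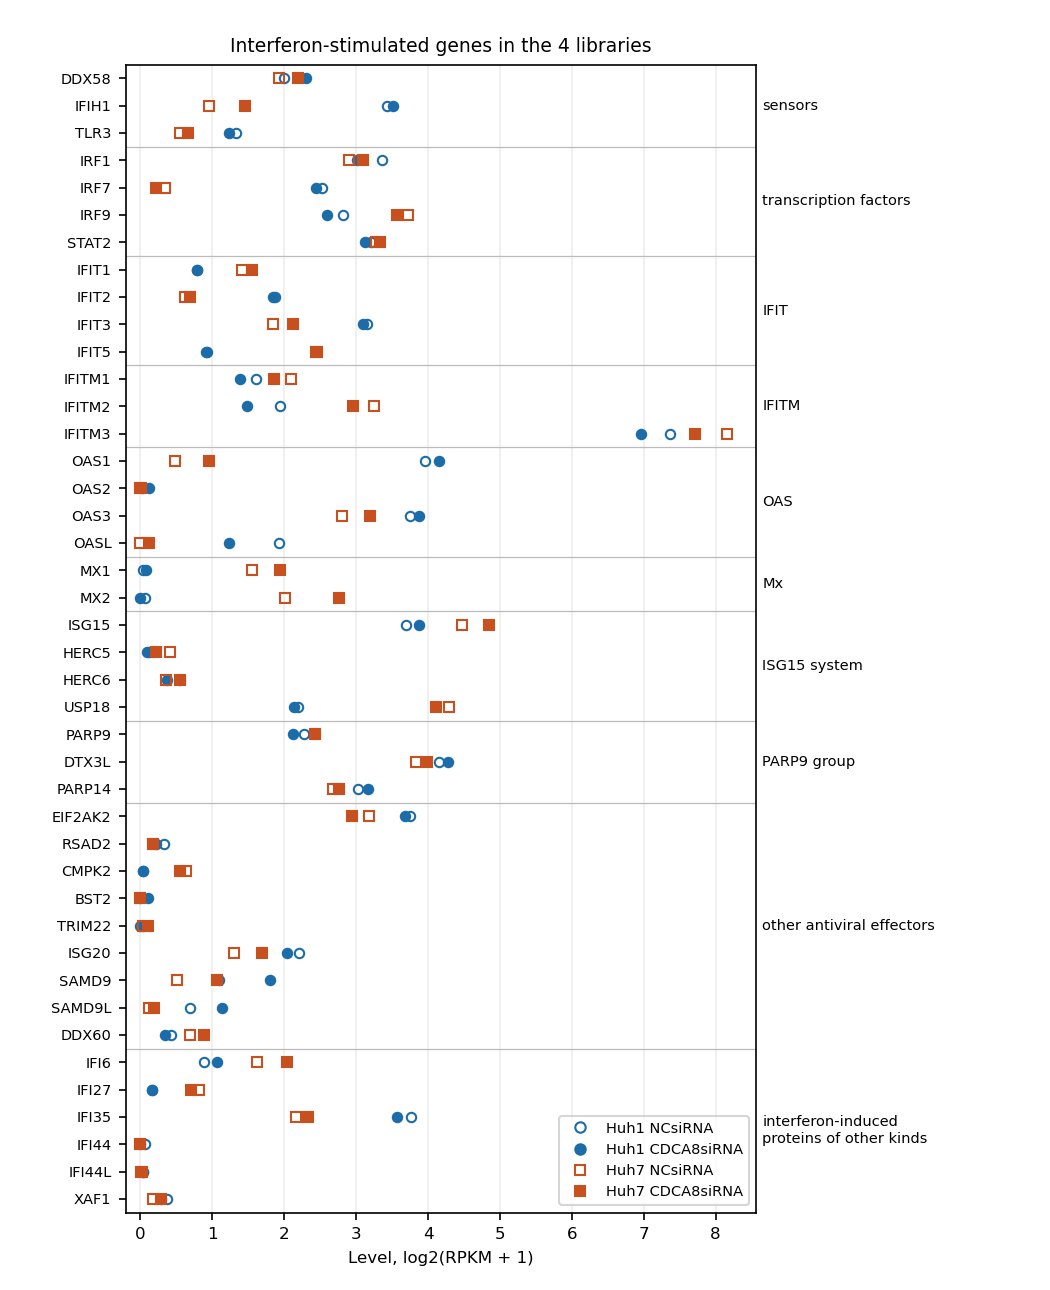
Level of each of the 42 members in the 4 libraries, as log2(RPKM + 1), by role; circles are Huh1, squares Huh7, open symbols NCsiRNA and filled symbols CDCA8siRNA, 1 library each. The symbols of one line lie close together for most genes, the lines are widely apart for OAS1, IFIH1, IRF7, MX1, MX2 and USP18, and IFITM3 lies far to the right of all others.

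The first comparison was between the lines. Every library was transfected with an siRNA. A difference between the untransfected lines and one in their response to transfection thus cannot be told apart. Of the 30 members that reached 1 RPKM, 20 did so in both lines, 6 in Huh1 alone and 4 in Huh7 alone, and many differed in level. This split was not counted over all transcripts, so it is not read as a trait of the set. OAS1, IFIH1, IRF7, OASL, IFIT2 and IFI35 were higher in Huh1, and MX1, MX2, USP18, IFIT5 and IFITM2 higher in Huh7, each by at least 2-fold on the log2(RPKM + 1) scale with either siRNA. The added 1 makes differences of low genes smaller than their RPKM ratios. A gene was compared where it had at least 1 RPKM in 1 library of the pair. With NCsiRNA 12 of the 29 members compared differed 2-fold, 5 higher in Huh7 and 7 in Huh1. Of all 11896 transcripts compared, 27.2% differed 2-fold, 17% higher in Huh7 and 10.2% higher in Huh1. With CDCA8siRNA 11 of 30 members did, 5 higher in Huh7 and 6 in Huh1, against 27.5% of 12005 transcripts, 17.4% and 10.1% by direction. The 11 members of both arms were the same genes, and IFIT3 was the twelfth with NCsiRNA. A 2-fold difference in the same direction in both arms was found in 22.9% of 12148 transcripts. The median over members was -0.33 and -0.21 (Huh7 minus Huh1, log2 scale) with NCsiRNA and CDCA8siRNA, and over all transcripts 0.14 in each. Quantile normalization removed this shift of all transcripts, changed their split with NCsiRNA from 2028 higher and 1211 lower in Huh7 to 1644 and 1504, and gave 5 higher and 10 lower members in place of 5 and 7.

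The spread around these differences came from limma fitted to all 4 libraries with the siRNA as a covariate, where the libraries of a line stand in for repeats of it. The fit left 1 residual degree of freedom, and limma added 7.48 prior degrees of freedom drawn from all transcripts. Each SE and p-value thus leans mostly on the variance shared by transcripts of like level. It leans less on how alike the lines differed for that gene under both siRNAs, and it holds no spread between cultures. At an adjusted p under 0.05, 26 of the 30 members tested differed between the lines, 15 higher in Huh1 and 11 in Huh7, among 71.2% of 12148 transcripts. Of those transcripts 5162 were higher in Huh7 and 3492 in Huh1. DDX58, IRF1, STAT2 and PARP9 did not pass.

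Of the RNA sensors, IFIH1 stood out. It was at 9.78 RPKM with NCsiRNA and 10.5 RPKM with CDCA8siRNA in Huh1, and at 0.935 and 1.74 RPKM in Huh7. The lines did not overlap, with RPKM ratios of 10.5 and 6.01 in favour of Huh1 (limma difference Huh7 minus Huh1 -2.27 on the log2 scale, SE 0.143, adjusted p = 1.71e-06). TLR3, the endosomal sensor of double-stranded RNA, was low in both lines, at 1.52 and 1.35 RPKM in Huh1 and 0.458 and 0.590 RPKM in Huh7 (limma -0.68, SE 0.174, adjusted p = 0.00728). DDX58 was nearly level, at 3.0 and 3.94 RPKM in Huh1 and 2.82 and 3.55 RPKM in Huh7. Its line difference of -0.09 (SE 0.13, limma adjusted p = 0.540) was smaller than its difference between the siRNAs.

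The transcription factors of the pathway differed in the same uneven way. IRF7, the factor that amplifies interferon production, had 4.74 and 4.42 RPKM in Huh1 but 0.270 and 0.165 RPKM in Huh7, about 6.5 and 4 reads (limma -2.20, SE 0.152, adjusted p = 3.09e-06). IRF9, the DNA-binding subunit of ISGF3, went the other way, with 6.03 and 5.04 RPKM in Huh1 and 12.2 and 10.8 RPKM in Huh7 (limma 0.94, SE 0.11, adjusted p = 7.44e-05). STAT2, its partner, was at 8.20 and 7.69 RPKM in Huh1 and 8.69 and 9.12 RPKM in Huh7, and IRF1 at 9.26 and 7.04 RPKM in Huh1 and 6.50 and 7.52 RPKM in Huh7. For STAT2 and IRF1 the limma difference was 0.15 (SE 0.111) and -0.18 (SE 0.143), with adjusted p of 0.259 and 0.272. Under quantile normalization IRF1 and DDX58 passed the test as higher in Huh1, and IFIT1 and IFITM1 no longer passed.

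The IFIT genes encode proteins that bind viral RNA ends. Of these genes 4 lie in a cluster on chromosome 10 in the order IFIT2, IFIT3, IFIT1, IFIT5, with 1 other protein-coding gene among them. Members of this cluster differed in opposite directions. IFIT2 was at 2.66 and 2.58 RPKM in Huh1 and 0.542 and 0.606 RPKM in Huh7, a ratio of 4.91 and 4.26 in favour of Huh1 (limma -1.20, SE 0.158, adjusted p = 0.000153). IFIT3 followed it, at 7.86 and 7.55 RPKM in Huh1 and 2.60 and 3.37 RPKM in Huh7. IFIT5 was at 0.889 and 0.902 RPKM in Huh1 and 4.47 and 4.43 RPKM in Huh7, a ratio of 5.03 and 4.91 in favour of Huh7 (limma 1.52, SE 0.142, adjusted p = 1.83e-05). IFIT1 was also higher in Huh7, at 1.67 and 1.93 RPKM against 0.723 and 0.733 RPKM. The windows printed above for IFIT1, IFIT3 and IFIT5 each held the TTTC form of the motif. IFIT2 had no entry in the promoter table, and a link between motif and level was not tested.

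The OAS enzymes make 2′-5′ oligoadenylates, signal molecules of the antiviral response, and the OAS genes were the group most tilted to Huh1. OAS1 showed the widest gap of any member on the log2(RPKM + 1) scale, with 14.6 and 16.8 RPKM in Huh1 and 0.394 and 0.931 RPKM in Huh7, about 8.7 and 20.7 reads (limma -3.34, SE 0.132, adjusted p = 1.03e-07). Its neighbour OAS3 differed less, at 12.5 and 13.7 RPKM in Huh1 and 6.0 and 8.11 RPKM in Huh7 (limma -0.82, SE 0.114, adjusted p = 0.000226). OASL, a relative without synthetase activity, was at 2.80 and 1.34 RPKM in Huh1, and in Huh7 it was listed at 0 with NCsiRNA and at 0.0886 RPKM with CDCA8siRNA (limma -1.52, SE 0.224, adjusted p = 0.000321). OAS2, next to OAS3 on chromosome 12, did not exceed 0.0831 RPKM.

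MX1 and MX2 are adjacent genes on chromosome 21 for dynamin-like GTPases that trap viral nucleocapsids. Both were under 0.1 RPKM in each Huh1 library. MX1 had 1.93 RPKM with NCsiRNA and 2.86 RPKM with CDCA8siRNA in Huh7, and 0.0252 and 0.0511 RPKM in Huh1, about 1 and 2 reads. MX2 had 3.02 and 5.78 RPKM in Huh7, and in Huh1 0.0505 RPKM with NCsiRNA, about 2 reads, and 0 with CDCA8siRNA. With so few reads in Huh1 no ratio is given for either gene. On the log2(RPKM + 1) scale limma put Huh7 higher by 1.70 for MX1 (SE 0.182, adjusted p = 4.48e-05) and by 2.35 for MX2 (SE 0.213, adjusted p = 1.54e-05).

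ISG15 is a ubiquitin-like protein, HERC5 attaches it to proteins, HERC6 is a related ligase, and USP18 removes ISG15 and damps IFNAR signalling. ISG15 was at 12.0 and 13.7 RPKM in Huh1 and 21.3 and 27.9 RPKM in Huh7 (limma 0.88, SE 0.104, adjusted p = 8.18e-05). USP18 was at 3.58 and 3.39 RPKM in Huh1 and 18.6 and 16.2 RPKM in Huh7, a ratio of 5.19 and 4.78 in favour of Huh7 (limma 2.03, SE 0.111, adjusted p = 7.19e-07). Reads of USP18 can be shared with its near copy USP41, so its level is uncertain. HERC5 stayed at 0.0647 to 0.327 RPKM and HERC6 at 0.274 to 0.461 RPKM, so the tag and its removing enzyme were well above these ligases in both lines.

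The IFITM genes on chromosome 11 encode membrane proteins that block fusion of enveloped viruses, and all 3 were higher in Huh7. IFITM3 was the most abundant member of the set in each library, at 164 RPKM with NCsiRNA and 123 RPKM with CDCA8siRNA in Huh1 and at 284 and 209.8 RPKM in Huh7 (limma 0.78, SE 0.0745, adjusted p = 2.23e-05). IFITM2 was far lower, at 2.85 and 1.78 RPKM in Huh1 and 8.48 and 6.76 RPKM in Huh7 (limma 1.39, SE 0.126, adjusted p = 1.54e-05). IFITM1 was lower still in Huh7, at 3.28 and 2.62 RPKM, against 2.04 and 1.60 RPKM in Huh1. These paralogs are near-identical over part of their length, so how reads were divided between them is uncertain.

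DTX3L and PARP9 act as a pair in ADP-ribosylation and histone ubiquitination, and DTX3L was the second most abundant member in Huh1, at 16.9 and 18.3 RPKM, with 13.3 and 14.8 RPKM in Huh7 (limma -0.31, SE 0.0997, adjusted p = 0.0213, and 0.0802 without the siRNA as a covariate). PARP9 ranged from 3.34 to 4.36 RPKM and PARP14 from 5.39 to 7.93 RPKM over the 4 libraries. EIF2AK2, which encodes the double-stranded RNA-dependent kinase PKR, was at 12.5 and 11.8 RPKM in Huh1 and 8.07 and 6.66 RPKM in Huh7. IFI35 was at 12.6 and 10.9 RPKM in Huh1 and 3.48 and 4.04 RPKM in Huh7, a ratio of 3.61 and 2.68 in favour of Huh1 (limma -1.42, SE 0.128, adjusted p = 1.55e-05). IFI6, a mitochondrial survival factor, was higher in Huh7, at 2.09 and 3.11 RPKM against 0.847 and 1.10 RPKM. ISG20, an exonuclease, was at 3.59 and 3.09 RPKM in Huh1 and 1.46 and 2.22 RPKM in Huh7.

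**Figure D3:**
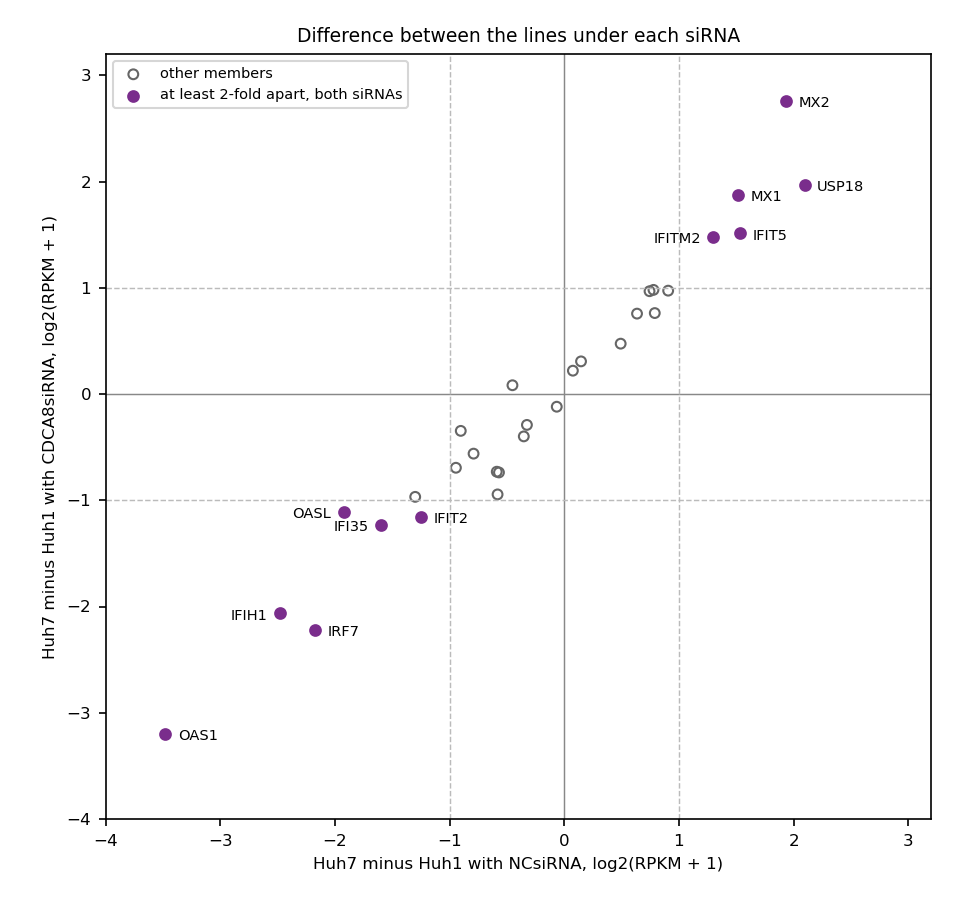
Difference Huh7 minus Huh1 on the log2(RPKM + 1) scale for the members with at least 1 RPKM in a library, with NCsiRNA on the x axis and CDCA8siRNA on the y axis; dashed lines mark 2-fold. The 11 named genes are at least 2-fold apart under both siRNAs, 5 higher in Huh7 at the upper right and 6 higher in Huh1 at the lower left.

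Other cell type markers also differed between the lines. The 5 fibroblast markers summed to 0.168 and 0.211 RPKM in Huh1 and to 141 and 187 RPKM in Huh7, of which COL1A1 held most, while PDGFRB and DCN were under 1 RPKM in all libraries. The 6 leukocyte markers summed to 1.41 and 2.80 RPKM in Huh1 and 11.5 and 24.4 RPKM in Huh7, most of it LYZ, with PTPRC at no more than 0.417 RPKM. Their part in the line differences was not tested.

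The next question was whether the set responded to the CDCA8 siRNA. On the log2(RPKM + 1) scale no member differed 2-fold in either line. So few transcripts of any kind did that a count of 0 does not set the members apart. Of 26 members compared in Huh1 0 differed 2-fold between the siRNAs, and of 24 compared in Huh7 likewise 0, where 0.494% of 10940 and 1.57% of 11565 transcripts did. In Huh1 these transcripts were 35 higher and 19 lower, or 22 and 20 under quantile normalization. The 0 among the members compared depended on the added 1. By plain RPKM ratio SAMD9 was 2.19-fold higher in Huh1 and 2.61-fold higher in Huh7, and OASL 2.08-fold lower in Huh1. Members under 1 RPKM in both libraries of a line were not compared, such as OAS1 in Huh7, with a ratio of 2.36. How many of all transcripts passed 2-fold by plain ratio was not counted. At 1.5-fold, 2 members differed in Huh1, SAMD9 higher and OASL lower, against 3.75% of transcripts, and 1 differed in Huh7, MX2 higher, against 8.72%. With CDCA8siRNA 10 of 26 members were higher by any amount in Huh1 (all transcripts 55.1%) and 17 of 24 in Huh7 (all transcripts 54.5%). The median difference, CDCA8siRNA minus NCsiRNA on the log2(RPKM + 1) scale, was -0.07 over members and 0.02 over all transcripts in Huh1, and 0.16 and 0.03 in Huh7. These are single libraries and no test was possible within a line. The summed level of the 10 hepatocyte markers was lower with CDCA8siRNA, 4130.3 against 5375 RPKM in Huh1 and 2354 against 3358 RPKM in Huh7, and its part was not tested.

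Over both lines, limma with the line as a covariate tested 30 members, and 1 of them, IFITM3, passed at an adjusted p under 0.05, where 6.39% of 12148 transcripts passed, 454 higher and 322 lower with CDCA8siRNA. Without adjustment 5 of the 30 members and 2767 of the 12148 transcripts had p under 0.05. IFITM3 fell with CDCA8siRNA by about the same step in each line, in Huh1 from 164 to 123 RPKM and in Huh7 from 284 to 209.8 RPKM, differences of -0.41 and -0.43 with counting SDs of 0.0521 and 0.0416. The limma difference was -0.42 (SE 0.0745, adjusted p = 0.0177). This call rested on the settings, since adjusted p ranged from 0.00555 to 1.00 over 8 alternatives and missed the threshold without the filter on low values, without the variance trend and without the line as a covariate. IFITM2 was also lower with CDCA8siRNA in each line, by -0.47 in Huh1 and -0.29 in Huh7 (counting SDs 0.317 and 0.231). It did not pass (limma adjusted p = 0.118). IFITM1 had -0.22 and -0.24, both within their counting SDs of 0.289 and 0.275. The 3 IFITM members had the same sign in both lines, but these paralogs may share reads, so the signs may not be independent.

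Among members higher with CDCA8siRNA, SAMD9 had the largest limma difference over both lines. It encodes a cytoplasmic factor that restricts poxviruses and was at 1.13 RPKM with NCsiRNA and 2.48 RPKM with CDCA8siRNA in Huh1, and at 0.419 and 1.09 RPKM in Huh7. Its RPKM ratio was 2.19 in Huh1 and 2.61 in Huh7, from about 104 and 224 reads and about 35 and 92 reads. On the log2(RPKM + 1) scale the difference was 0.70 (counting SD 0.102) and 0.56 (counting SD 0.107), and limma gave 0.63 (SE 0.164, adjusted p = 0.0583), just short of the threshold. It passed with a pseudocount of 0.1 RPKM (adjusted p = 0.0434) and with at least 1 RPKM required in each line (adjusted p = 0.0349), among alternatives that ran up to 1.00. Its neighbour on chromosome 7, SAMD9L, was at 0.619 and 1.20 RPKM in Huh1 and 0.0819 and 0.142 RPKM in Huh7.

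OASL and MX2 differed between the siRNAs in the line that expressed them. OASL was at 2.80 RPKM with NCsiRNA and 1.34 RPKM with CDCA8siRNA in Huh1, about 55.9 and 26.5 reads, a difference of -0.70 with a counting SD of 0.215. MX2 was at 3.02 and 5.78 RPKM in Huh7, about 112 and 216 reads, a difference of 0.76 with a counting SD of 0.132. In the other line each was under 0.1 RPKM, and over both lines limma gave adjusted p of 0.497 and 0.388. MX1 in Huh7 had a difference of 0.39 (counting SD 0.158).

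Of the sensors and factors none passed the limma test for the siRNA. DDX58 was higher with CDCA8siRNA in each line, by 0.31 and 0.25 (adjusted p = 0.249), and IFIH1 by 0.09 in Huh1 and 0.50 in Huh7 (adjusted p = 0.265). IRF9 was lower in each, by -0.22 and -0.15 (adjusted p = 0.356). STAT2 differed by -0.08 and 0.06, TLR3 by -0.11 and 0.12, and IRF7 by -0.08 and -0.12. IRF1 had opposite signs, at -0.35 in Huh1 and 0.18 in Huh7, with counting SDs of 0.0929 and 0.102. ISG15 was at 0.17 and 0.37 (adjusted p = 0.163), OAS1 at 0.19 and 0.47 (0.179 by limma) and OAS3 at 0.13 and 0.38 (0.232 by limma), higher with CDCA8siRNA in each line without passing the adjusted threshold. Unadjusted, ISG15 and OAS1 had limma p of 0.0287 and 0.0346, but 2767 of 12148 transcripts also had unadjusted p under 0.05. A p above the threshold does not show that these genes were level.

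**Figure D4:**
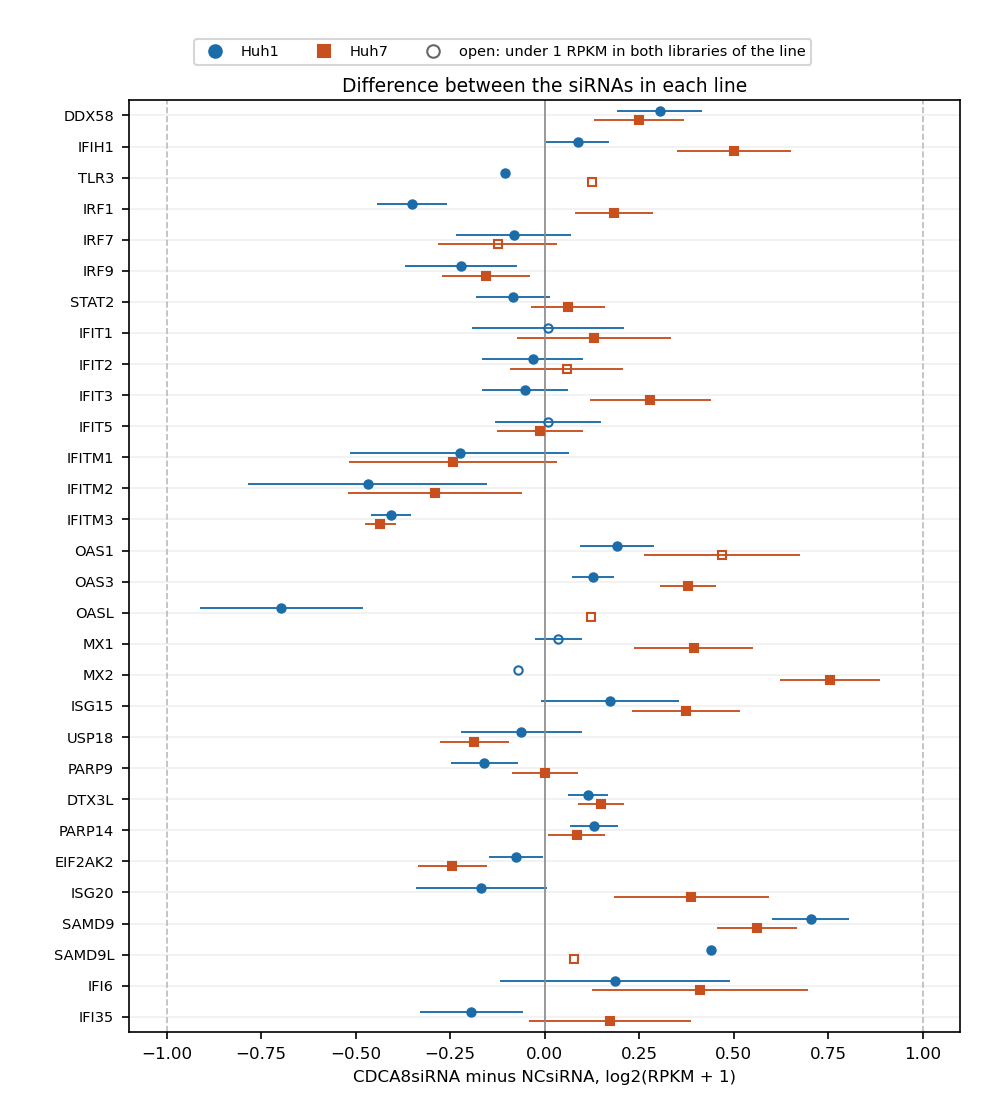
Difference CDCA8siRNA minus NCsiRNA on the log2(RPKM + 1) scale for the 30 members with at least 1 RPKM in any library, circles for Huh1 and squares for Huh7; bars are the SD from read counting alone, absent where no read number was available or a library was at 0, and dashed lines mark 2-fold. No symbol reaches 2-fold, IFITM3 lies left of 0 in both lines with narrow bars, and SAMD9 lies right of 0 in both.

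The rest of the pathway was read from a list of 58 further genes. Ligands were essentially absent. Of 21 interferon genes, IFNB1 among them, 18 were listed at 0 in all 4 libraries. IFNA5 and IFNA13 were at 0.108 and 0.0538 RPKM in Huh1 with CDCA8siRNA, and IFNA8 was at 0.0789 RPKM in Huh7 with NCsiRNA, each about 1 read. For IFNB1 a count of 0 allows up to 3 reads, or 0.261 to 0.286 RPKM, counting error only. Interferon at levels under these limits was not detectable here.

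Receptors and signalling genes were present in both lines. IFNAR1 was at 9.56 and 9.82 RPKM in Huh1 and 11.3 and 10.9 RPKM in Huh7, and IFNAR2 at 20.1 and 13.8 RPKM in Huh1 and 22.9 and 24.2 RPKM in Huh7. JAK1 ranged from 49.2 to 56.0 RPKM, TYK2 from 9.97 to 16.4 RPKM, and IRF3, which starts interferon transcription, from 28.5 to 34.5 RPKM. MAVS, the mitochondrial adaptor that RIG-I and MDA5 share, was at 10.8 and 10.5 RPKM in Huh1 and 21.4 and 17.8 RPKM in Huh7.

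By limma 15 of the 30 pathway genes tested were higher in Huh7 and 5 higher in Huh1, a share no higher than the 71.2% of all transcripts. At least 2-fold apart in both arms were 4 genes, IL28RA, IFNGR2 and IKBKE, higher in Huh7, and TRIM25, higher in Huh1, against 22.9% of all transcripts. IL28RA, the receptor chain for type III interferon, was at 0.770 and 0.975 RPKM in Huh1 and 3.44 and 3.53 RPKM in Huh7. IFNGR2, a chain of the type II interferon receptor, was at 10.6 and 8.51 RPKM against 28.7 and 23.7 RPKM, while its partner IFNGR1 was at 23.7 and 20.9 RPKM against 23.7 and 25.2 RPKM (limma 0.13, SE 0.105, adjusted p = 0.289). IKBKE, a kinase that activates IRF3 and IRF7, was at 2.66 and 2.46 RPKM against 14 and 12.7 RPKM. TRIM25, the ubiquitin ligase that assists RIG-I, was at 32.1 and 31.8 RPKM in Huh1 and 11.5 and 11.4 RPKM in Huh7.

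For the siRNA 1 of the 30 pathway genes passed, against 6.39% of all transcripts. TRAF3, an adaptor between MAVS and the IRF3 kinases, rose with CDCA8siRNA in Huh1 (2.45 to 3.91 RPKM) and in Huh7 (5.16 to 10.4 RPKM) (limma 0.70, SE 0.136, adjusted p = 0.0240). Unlike for IFITM3, how far this call rested on the settings was not examined. On the log2(RPKM + 1) scale no pathway gene differed 2-fold between the siRNAs, of 25 compared in Huh1 and 29 in Huh7. By plain RPKM ratio TRAF3 was 2.02-fold higher in Huh7, and 2 further genes, named after their values were seen, also passed 2-fold there. How many of all transcripts passed 2-fold by plain ratio was not counted, so this is not read as a trait of the list. In Huh7 TLR7, an endosomal sensor of single-stranded RNA, was at 0.540 RPKM with NCsiRNA and 1.93 RPKM with CDCA8siRNA. SOCS3, an inhibitor of cytokine signalling, was at 4.62 and 1.97 RPKM. In Huh1 TLR7 was at 0.0650 and 0.0463 RPKM and SOCS3 at 0.656 and 0.554 RPKM, and limma over both lines gave adjusted p of 0.327 for TLR7 and 0.195 for SOCS3.

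**Figure D5:**
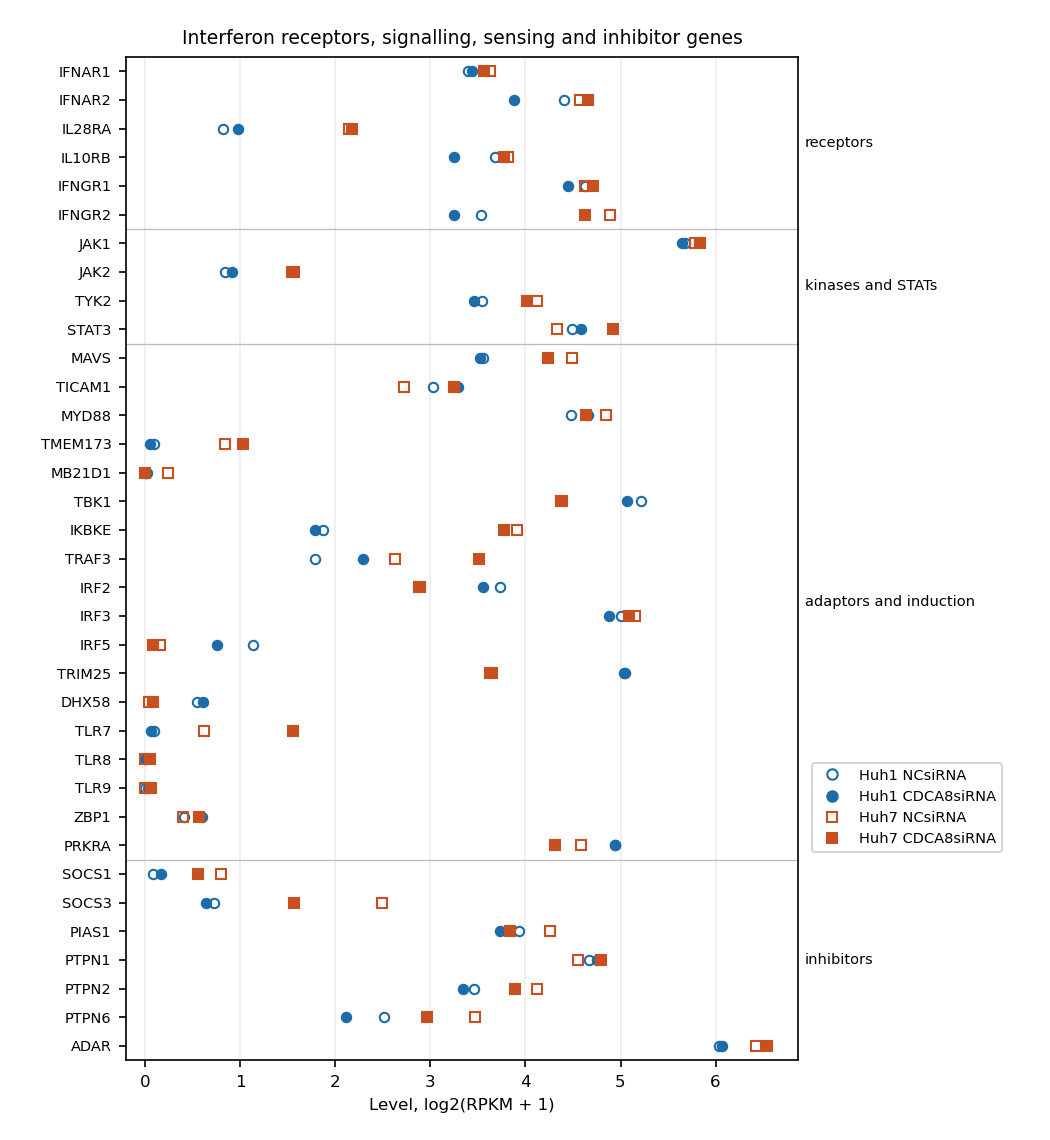
Level of receptors, kinases, adaptors and inhibitors of interferon signalling in the 4 libraries, as log2(RPKM + 1), with circles for Huh1, squares for Huh7, open symbols for NCsiRNA and filled symbols for CDCA8siRNA; the 21 interferon genes are not drawn. JAK1, IRF3 and ADAR are high in all libraries, and the lines are widest apart for IL28RA, IFNGR2, IKBKE and TRIM25 among genes 2-fold apart in both arms.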

How the data were processed

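Total RNA of Huh1 and Huh7 cells was made into TruSeq libraries, and the labels gave each of the 4 libraries its line and siRNA. The authors deposited 1 RPKM value per RefSeq transcript, with no stated unit; RPKM was inferred from the values, which times transcript length cluster at the value of 1 read. The submitters' processing notes name CASAVA 1.8.2, TopHat2 2.0.9 and hg19, while the counter and annotation version are not given in the sources used here. Read numbers came from GENCODE 29 lengths, which matched 17768 of 18398 rows and 39 of 42 members. As 34.9% to 38.1% of low values fell within 0.05 of a whole read, no read was recovered exactly and no test for counts was used. Counting SDs and the limit of 3 reads cover counting error only.

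Differences were taken on log2(RPKM + 1) where 1 library of a pair had at least 1 RPKM. limma 3.58.1 in R 4.3.3 (lmFit, eBayes with a variance trend, line plus siRNA) was fitted to all transcripts with at least 1 RPKM in 1 of the 4 libraries, with Benjamini-Hochberg adjustment over all of them, and was tested on simulated data. Promoter windows, gene order and names came from RefSeq tables on GRCh38.p14. The alternatives were a pseudocount of 0.1 RPKM, other minimum levels, upper quartile scaling, quantile normalization, and limma without the trend or the covariate.

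Members and gene lists were chosen with earlier results of these data known. Values in every library were printed for the 5 highest members of each line, members 2-fold apart between the lines in both arms or 1.5-fold between the siRNAs, the sensors and the transcription factors. Values of other members (IFIT1, IFIT3, IFITM1, IFI6, ISG20, EIF2AK2, SAMD9L) were added after they had been seen. No library was left out, and single values of 2 genes of the pathway list are not reported here.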

Additional observations from a re-analysis of the deposited data

Results flagged for a closer look

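Among members with at least 1 RPKM in a library of each pair, IRF1 was the only one whose difference between the siRNAs had opposite signs in the lines with both values beyond the SD from read counting. It was -0.35 in Huh1 and 0.18 in Huh7 (CDCA8siRNA minus NCsiRNA, log2(RPKM + 1) scale). The difference between the lines was not tested, since each line has 1 library per siRNA. Over both lines limma gave -0.08 (SE 0.143, adjusted p = 0.779).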

How the results depend on the processing

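With a pseudocount of 0.1 RPKM, 2 members (SAMD9 and OASL) differed 2-fold between the siRNAs in Huh1 and 1 (SAMD9) in Huh7, against 0 in each. Of 10940 transcripts in Huh1, 107 were 2-fold higher and 57 lower, against 35 and 19. Of 11565 in Huh7, 269 were higher and 153 lower, against 101 and 81. Between the lines 19 members differed with either siRNA, against 12 and 11. Of 11896 transcripts with NCsiRNA, 2487 were 2-fold higher in Huh7 and 1475 in Huh1, against 2028 and 1211. Of 12005 with CDCA8siRNA, 2526 and 1441 were, against 2089 and 1213. With at least 5 RPKM required, 6 members differed between the lines with either siRNA, since only 15 and 16 members could then be compared. Of 9280 transcripts with NCsiRNA, 1437 were then 2-fold higher in Huh7 and 915 in Huh1. Of 9431 with CDCA8siRNA, 1477 and 939 were. For the siRNA over both lines, limma called 1 member (IFITM3), 2 with the 0.1 pseudocount or with 1 RPKM in each line (SAMD9 added), 2 under quantile normalization (IFITM2 added), and 0 without the filter, without the trend or without the covariate; the cause was not tested. For the line, limma called 14 of 16 members with at least 5 RPKM and 16 of 20 with 1 RPKM in each line, against 26 of 30, since fewer were tested, and 22 of 30 without the covariate, where DTX3L (adjusted p = 0.0802), SAMD9 (adjusted p = 0.128), IFITM1 and PARP14 no longer passed. The share of all transcripts that limma called under these alternatives was not counted. Its member counts there are thus not read as traits of the set. No result changed direction past its threshold under any alternative run. Among single members, 568 values stayed on their side of the threshold or within the counting SD, 74 moved by more than that SD or had no SD, 5 lost and 5 gained a call. Part of the 568 was fixed in advance, since another minimum level cannot change a member's difference between 2 libraries. The 568 are therefore no measure of robustness. The labels give no replicate numbers, so the only pairing was of libraries within a line or an arm, which the covariate carries, and no library could be left out, as each condition has 1.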
